A study of Mus musculus with 13 samples.

Results

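Chemerin and its receptors are described here in the gluteal white adipose tissue (WAT) of 13 mice, through the transcripts of 4 genes, *Rarres2*, *Cmklr1*, *Gpr1* (current name *Cmklr2*) and *Ccrl2*. These are 4 of the 34419 genes in the count table, and all 4 were among the 17779 genes that passed the filter on low counts. *Cmklr1* was chosen from its small p in the comparison of housing temperatures, and the other 3 were chosen as its ligand and as further receptors of that ligand, so the differences between temperatures below are a description without a test. RNA was sequenced from gluteal WAT, a subcutaneous depot, of male C57BL/6J mice aged 13 weeks that had been bred and kept all their life in chambers at 22°C (7 mice) or at 29°C, which is thermoneutral (6 mice). Posterior hair was removed after weaning in both groups, and every mouse was housed alone with little bedding and without nesting material. There was thus no group with intact hair, and whole tissue was sequenced, so adipocytes, blood vessels and immune cells contributed together.

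Chemerin, encoded by *Rarres2*, is secreted as an inactive precursor, in large part by adipocytes and liver, and becomes a chemoattractant when proteases trim its carboxyl end. CMKLR1 is the receptor through which chemerin signals to macrophages, dendritic cells, natural killer cells and adipocytes, mainly through inhibitory G proteins. GPR1 binds chemerin as well, with weaker G protein signalling, whereas CCRL2 binds it without signalling and holds it at the cell surface, where it can be presented to neighbouring cells.

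The table of mouse promoters from RefSeq (build GRCm38.p6) held entries for 3 of the 4 genes, *Cmklr1*, *Gpr1* and *Ccrl2*, and none for *Rarres2*. The 250 bases before the first listed start of each gene are shown, because *Cmklr1* is the gene whose transcript separated the temperature groups, and *Gpr1* and *Ccrl2* are the receptors set beside it. All 3 lie on the minus strand, *Cmklr1* at chr5:113643604-113643853, *Gpr1* at chr1:63214282-63214531 and *Ccrl2* at chr9:111057519-111057768. Capitals mark matches, on either strand, to 5 motifs, GAAANNGAA (the core bound by interferon regulatory factors), TTCNNNGAA (a STAT site), AGGTCA (a nuclear receptor half-site), GGACTTTCC (an NF-kB site) and CCAAT (the CCAAT box); no 2 of the matches overlapped.
Cmklr1: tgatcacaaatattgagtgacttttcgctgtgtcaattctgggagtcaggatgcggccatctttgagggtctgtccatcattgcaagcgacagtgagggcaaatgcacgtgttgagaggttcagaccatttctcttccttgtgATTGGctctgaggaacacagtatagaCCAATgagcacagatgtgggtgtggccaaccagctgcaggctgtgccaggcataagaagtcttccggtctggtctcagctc
Gpr1: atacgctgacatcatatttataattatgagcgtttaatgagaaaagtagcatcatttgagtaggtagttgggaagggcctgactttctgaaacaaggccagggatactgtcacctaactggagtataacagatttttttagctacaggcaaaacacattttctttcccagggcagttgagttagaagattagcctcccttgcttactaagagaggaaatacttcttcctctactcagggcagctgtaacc
Ccrl2: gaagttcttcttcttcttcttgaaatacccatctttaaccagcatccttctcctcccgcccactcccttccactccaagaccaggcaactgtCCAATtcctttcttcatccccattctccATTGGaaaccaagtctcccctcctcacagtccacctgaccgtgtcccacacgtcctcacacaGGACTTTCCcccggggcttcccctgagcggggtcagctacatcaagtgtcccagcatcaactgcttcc

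The *Cmklr1* stretch held 2 CCAAT boxes, 1 on each strand, which began 107 and 81 bases before the start. A CCAAT box was present in 33.8% of the 32536 distinct promoter stretches of the same length. The *Ccrl2* stretch held 1 match to GGACTTTCC, 68 bases before the start, a run present in 0.286% of all stretches, and 2 CCAAT boxes. The first *Gpr1* stretch held no match to any of the 5 motifs, and a second listed *Gpr1* start, at chr1:63210717-63210966, held 1 AGGTCA (present in 14% of all stretches) and 1 CCAAT box. GAAANNGAA and TTCNNNGAA, present in 7.15% and 7.04% of all stretches, were in none of the 6 stretches of these genes. The motifs were picked after the sequences had been read, and a match in the letters is not evidence of binding.

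The 13 libraries held between 22356637 and 25245785 counts each. A group of 5 libraries, all at 22°C, had lower totals (22356637 to 22857079) than the other 8 (24821549 to 25245785), which were 2 at 22°C and all 6 at 29°C. A pair of libraries at 22°C, replicates 1 and 7, stood apart in skeletal muscle transcripts. They had 54356 and 75215 CPM (counts per 1000000 counts, with library sizes scaled by TMM) summed over 10 muscle genes. These are 5.44% and 7.52% of their TMM-scaled totals, not of their raw counts, and the highest of the other 11 libraries had 11441 CPM. Markers of the labelled tissue were abundant in every library, and 10 adipocyte genes summed to 16831 to 25600 CPM at 22°C and 20579 to 25683 CPM at 29°C. With edgeR's quasi-likelihood test, 345 of 17779 genes (1.94%) had a Benjamini-Hochberg adjusted P (P-adj) below 0.1, the study's threshold, and are called changed. The groups did not overlap for 221 genes (1.24%).

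Of the 4 genes, 1 was called changed and had groups that did not overlap, *Cmklr1*, beside 1.94% and 1.24% of all genes tested, and nothing is read from that count because the genes were chosen from this comparison. *Cmklr1* and *Rarres2* were abundant and lower on average at 22°C, by 0.68 and 0.41 on the log2 scale, whereas *Gpr1* and *Ccrl2* were scarce and had higher means at 22°C with groups that overlapped. Over all genes tested, the 10th percentile of the log2 fold change was -0.30, the median 0.0074 and the 90th percentile 0.39, so that *Cmklr1* and *Rarres2* lay below the 10th percentile and *Gpr1* and *Ccrl2* just inside the 90th. In whole tissue, fewer cells of a type and less RNA per cell cannot be told apart.

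**Figure D1:**
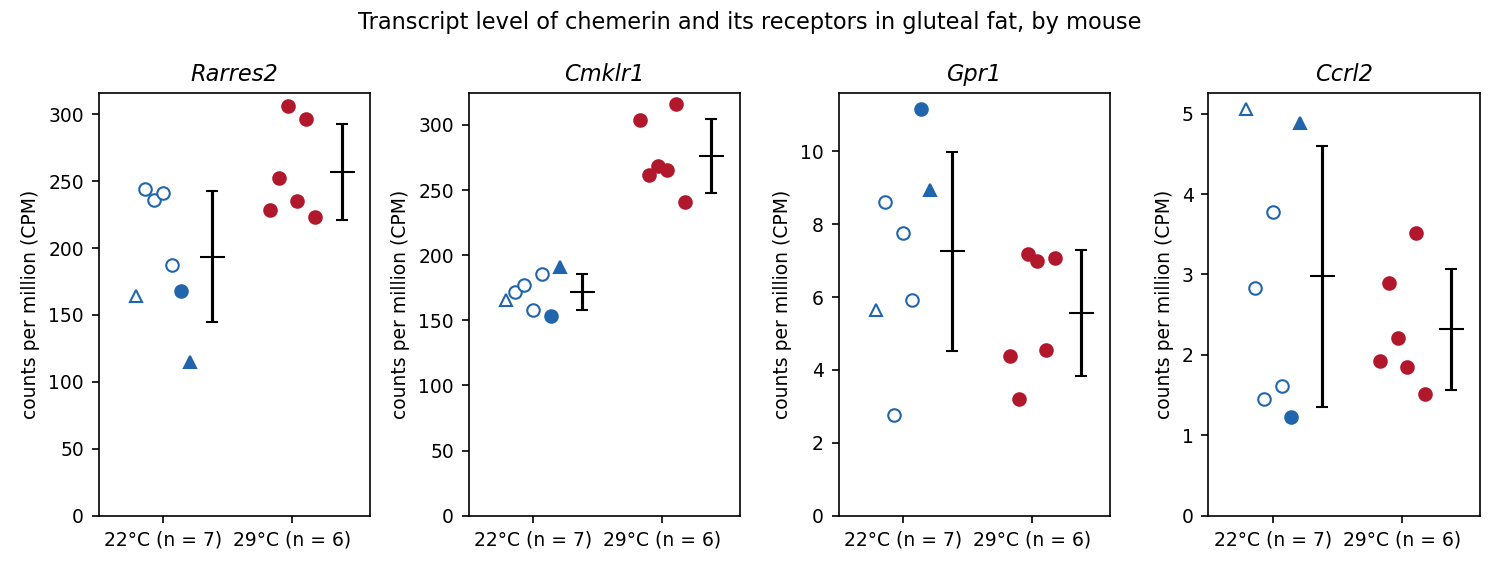
Transcript level in CPM of each gene in each mouse at 22°C (blue, n = 7) and 29°C (red, n = 6), each panel with its own vertical axis from 0; open symbols are the 5 libraries of lower total, triangles the 2 libraries highest in skeletal muscle transcripts, and bars the mean ± SD. The 22°C mice sit between 154 and 191 CPM for *Cmklr1*, below all 29°C mice (241 to 316 CPM), whereas the groups overlap for the other 3 genes.

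*Rarres2* (ENSMUSG00000009281.7), the gene of the ligand, was at 115 CPM in the lowest, 187 CPM in the median and 244 CPM in the highest of the 7 mice at 22°C. At 29°C its lowest, median and highest levels were 223, 244 and 306 CPM. The groups overlapped in part, because 4 of the 7 mice at 22°C were below every mouse at 29°C and 3 were within their range, while 3 of the 6 mice at 29°C were above every mouse at 22°C.
The 7 mice at 22°C averaged 194 ± 49.0 CPM (SD) and the 6 at 29°C 257 ± 35.8 CPM (SD), which gave -0.41 ± 0.16 (SE) as log2 fold change, not called. The 2 lowest mice were replicate 7 (115 CPM) and replicate 1 (164 CPM), the libraries highest in muscle transcripts. Without these 2 libraries the log2 fold change of *Rarres2* was -0.26 ± 0.12 (SE). Within the 8 libraries of higher total it was -0.87, from 2 mice at 22°C (115 and 168 CPM) against all 6 at 29°C, and library total and temperature cannot be told apart in the 5 others.

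The count of *Rarres2* may hold reads of a neighbour, or lack reads over bases that both genes share. In the GENCODE M21 annotation (GRCm38), 892 of its 2656 exon bases are shared with *Lrrc61*, a gene on the opposite strand that encodes a leucine-rich repeat protein, and the strand setting of the count is not given in the sources used here. *Lrrc61* had 80.5 CPM in the lowest, 110 CPM in the median and 145 CPM in the highest mouse at 22°C, and 134, 147 and 186 CPM at 29°C. The log2 fold change of *Lrrc61* was -0.39 ± 0.14 (SE), with an edgeR P-adj of 0.177. With group means removed, *Lrrc61* was the gene most like *Rarres2* among 12232 candidates over 13 libraries (Pearson's r = 0.989, Spearman's rho = 0.951).
The ratio of *Rarres2* to *Lrrc61* averaged 1.63 ± 0.103 (SD) over the 7 mice at 22°C and 1.66 ± 0.0208 (SD) over the 6 at 29°C. The means differed by less than the SD at 22°C, though by more than the SD at 29°C. The medians ran the other way, 1.68 at 22°C and 1.67 at 29°C. Whether reads over the shared bases were counted for both genes or for neither is not given in the sources used here. Their part in this likeness was not tested. The next genes most like *Rarres2* were *Sdf4*, a calcium-binding protein of the Golgi (r = 0.965), and *Gtpbp6*, a GTP-binding protein (r = 0.923).

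*Cmklr1* (ENSMUSG00000042190.13), the gene of the main signalling receptor, was at 154 CPM in the lowest, 172 CPM in the median and 191 CPM in the highest mouse at 22°C. At 29°C its lowest, median and highest levels were 241, 267 and 316 CPM. Every mouse at 22°C was below every mouse at 29°C, and the gap between the groups was wider than the whole range at 22°C.
The 7 mice at 22°C averaged 172 ± 13.8 CPM (SD) and the 6 at 29°C 276 ± 28.2 CPM (SD), which is 37.8% lower at 22°C, with a log2 fold change of -0.68 ± 0.078 (SE). It ranked number 5 by p among the 17779 genes tested, and it was chosen by that p, so nothing is read from the rank. *Cmklr1* also had the lowest coefficient of variation of the 4 genes, 8.01% at 22°C and 10.2% at 29°C. A choice by p favours a gene of small spread, and *Gpr1* and *Ccrl2* had far fewer counts, so nothing is read from this order.

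The difference in *Cmklr1* had nearly the same size when libraries were left out. Leaving out 1 mouse at a time gave log2 fold changes from -0.72 to -0.64. Because *Cmklr1* was chosen by its p in this comparison, a call in such refits is not a test of it. Without the 2 libraries highest in muscle transcripts the log2 fold change was -0.71 ± 0.084 (SE).
Within the 8 libraries of higher total it was -0.69, and it was -0.68 when the fit held a term for the cluster of totals, without a call in either fit; 8 and 4 genes in all were called there. Inside those 8 libraries the 2 mice at 22°C had 154 and 191 CPM, the lowest and the highest level at 22°C. The 5 mice with lower totals had 158 to 185 CPM. All 5 were at 22°C, so library total and temperature cannot be told apart in them. The part of library total in the difference was not tested.

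*Gpr1* (ENSMUSG00000046856.14), the gene of the second chemerin receptor, was scarce, with 61 to 290 counts per library. Its lowest, median and highest levels were 2.76, 7.76 and 11.2 CPM at 22°C. At 29°C they were 3.20, 5.77 and 7.19 CPM. All 6 mice at 29°C fell inside the range at 22°C, where 4 mice were above and 1 was below every mouse at 29°C.
The 7 mice at 22°C averaged 7.26 ± 2.73 CPM (SD) and the 6 at 29°C 5.56 ± 1.73 CPM (SD), which gave 0.39 ± 0.29 (SE) as log2 fold change, not called. Within the libraries of higher total the log2 fold change was 0.84, because the 2 mice at 22°C there were the highest of all (8.95 and 11.2 CPM). Without the 2 libraries highest in muscle transcripts it was 0.38 ± 0.32 (SE).

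*Ccrl2* (ENSMUSG00000043953.13), the gene of the chemerin-binding receptor that does not signal, was the scarcest, with 32 to 108 counts per library. Its lowest, median and highest levels were 1.23, 2.83 and 5.06 CPM at 22°C. At 29°C they were 1.52, 2.06 and 3.52 CPM. The groups overlapped, with all 6 mice at 29°C inside the range at 22°C.
The 7 mice at 22°C averaged 2.98 ± 1.63 CPM (SD) and the 6 at 29°C 2.32 ± 0.751 CPM (SD), which gave 0.36 ± 0.35 (SE) as log2 fold change, not called. The highest 2 mice were the 2 libraries highest in muscle transcripts, replicate 1 (5.06 CPM) and replicate 7 (4.88 CPM). Without them the sign turned, to -0.090 ± 0.32 (SE), and it was -0.31 with the skeletal muscle score as a covariate and -0.33 with the adipocyte score. *Ccrl2* also varied most from mouse to mouse at 22°C, with a coefficient of variation of 54.6%.

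**Figure D2:**
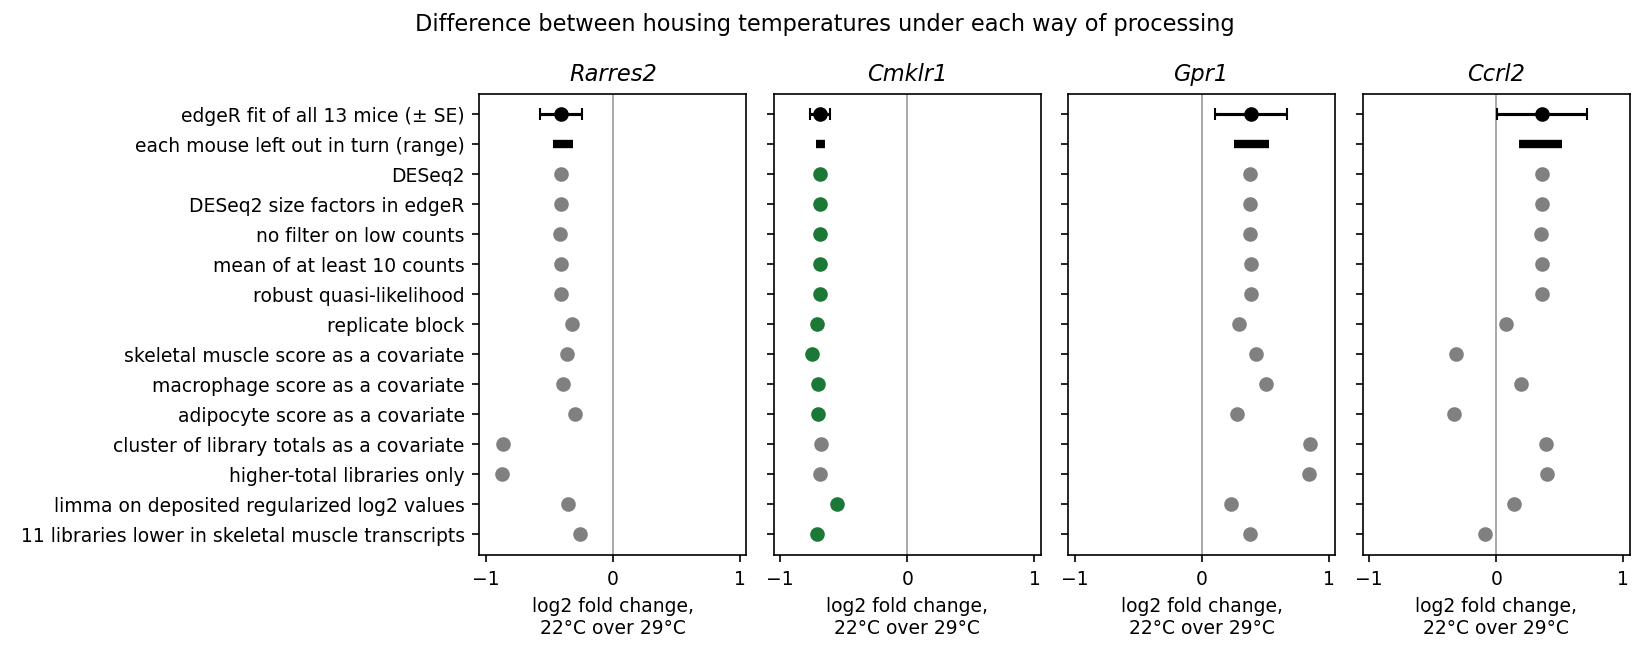
Log2 fold change of each gene, 22°C over 29°C (horizontal axis), in the edgeR fit of all 13 mice (black point with SE), over the fits that each leave out 1 mouse (black bar, lowest to highest) and under each other setting (green where the gene was called, grey where not). *Cmklr1* stays between -0.75 and -0.55 throughout, *Rarres2* and *Gpr1* keep their sign, and *Ccrl2* changes sign under the 2 covariates and without the libraries high in muscle.

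Levels were compared between genes only per length of transcript. Divided by the median length of their coding transcripts in GENCODE M21 (0.706 kb for *Rarres2*, 2.88 kb for *Cmklr1*, 1.94 kb for *Gpr1* and 2.16 kb for *Ccrl2*), the mean levels at 29°C were 364 ± 50.7, 95.8 ± 9.79, 2.87 ± 0.893 and 1.07 ± 0.348 CPM per kb (SD, n = 6). At 22°C they were 274 ± 69.4, 59.6 ± 4.78, 3.74 ± 1.41 and 1.38 ± 0.752 CPM per kb (SD, n = 7). The order was the same at both temperatures, with the ligand first, then CMKLR1, and the other 2 receptors far below. *Rarres2* and *Cmklr1* did not overlap on this scale (162.7 to 346 and 53.3 to 66.3 CPM per kb at 22°C), but did overlap when all annotated exon bases were used as the length (43.2 to 91.9 and 45.1 to 56.1 CPM per kb at 22°C), where the 2656 exon bases of *Rarres2* exceed its coding transcripts of 672 to 795 bases. *Gpr1* and *Ccrl2* overlapped at 22°C (1.42 to 5.76 and 0.570 to 2.34 CPM per kb).

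From mouse to mouse within a temperature, the 4 genes showed no relation to each other that passed a test. After group means were removed, the largest of the 6 correlations in log2 CPM over 13 mice was between *Cmklr1* and *Gpr1* (Pearson's r = -0.34, permutation p = 0.260; Spearman's rho = -0.280, permutation p = 0.373). All 6 Benjamini-Hochberg adjusted p-values of r were at least 0.868 (two-sided permutation tests). *Rarres2* and *Cmklr1*, the ligand and its main receptor, had r = -0.097 (adjusted p = 0.903, permutation test) and rho = 0.115 (adjusted p = 0.761).
For *Rarres2* and *Ccrl2* r was -0.16 and became 0.709 without the 2 mice farthest from the median of *Rarres2* (adjusted p = 0.214, permutation test; rho = 0.773, adjusted p = 0.0583). Within the 8 libraries of higher total, r was 0.743 for *Cmklr1* and *Ccrl2* (adjusted p = 0.299, permutation test).

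The genes most like each receptor, by Pearson's r with group means removed over 13 libraries, differed between receptors. For *Cmklr1* they were *Chchd7*, a small mitochondrial protein (r = 0.822), *Adrb1*, the beta-1 adrenergic receptor (r = 0.807), and *Cdadc1*, a deaminase domain protein (r = 0.805). *Adrb1* itself averaged 5.45 CPM at 22°C against 10.5 CPM at 29°C and was not called (log2 fold change -0.94 ± 0.43 SE, edgeR P-adj = 0.266). For *Gpr1* they were *Wnt10b*, a Wnt ligand that restrains adipocyte formation (r = 0.906), *Efhd1*, a mitochondrial calcium-binding protein (r = 0.897), and *Ackr3*, an atypical chemokine receptor (r = 0.891). For *Ccrl2* they were *Arrdc2*, an arrestin domain protein (r = 0.949), *Coro6*, a coronin of muscle and nerve (r = 0.935), and *Cdh13*, the cell surface receptor T-cadherin that binds adiponectin (r = 0.923). These values are a description, since each comes from the top of 12232 or 12233 candidates.

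To see which cell types each gene followed, the 4 genes were set beside 13 lists of cell type markers, each scored as the mean log2 CPM of its genes. None of the 52 correlations had an adjusted p of r below 0.05 (two-sided permutation tests), and 5 had an unadjusted p below 0.05. *Gpr1* went with 8 markers of adipocyte progenitors and fibroblasts such as *Pi16* and *Dcn* (r = 0.757, permutation p = 0.00406, adjusted p = 0.125; rho = 0.615, permutation p = 0.0331, adjusted p = 0.430). Without the 2 mice farthest from the median of that score r was 0.584, and within the libraries of higher total it was 0.485. The 2 farthest mice differ between lists. For the skeletal muscle list they were replicate 7 at 22°C and replicate 6 at 29°C, so replicate 1 at 22°C was kept.
*Ccrl2* went with the 10 skeletal muscle genes (r = 0.743, permutation p = 0.00482, adjusted p = 0.125; rho = 0.764, permutation p = 0.00718, adjusted p = 0.373), with r = 0.699 without the 2 farthest mice and 0.634 within the libraries of higher total. It ran against the 10 adipocyte genes (r = -0.75, permutation p = 0.0137, adjusted p = 0.238; rho = -0.68, permutation p = 0.0316, adjusted p = 0.430). *Rarres2* had r = 0.433 with the adipocyte genes (permutation p = 0.207, adjusted p = 0.673; rho = 0.324, permutation p = 0.334, adjusted p = 0.724), which became -0.19 without the 2 farthest mice. The other 2 unadjusted p below 0.05 were with the neutrophil list, for *Gpr1* (r = -0.67, permutation p = 0.0202, adjusted p = 0.263, rho = -0.52, permutation p = 0.0859, adjusted p = 0.565) and for *Rarres2* (r = 0.645, permutation p = 0.0276, adjusted p = 0.287, rho = 0.659, permutation p = 0.0281, adjusted p = 0.430). That list lies near the floor, as 4 of its 7 genes passed the filter on low counts and all summed to 10.2 CPM or less in every mouse.

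**Figure D3:**
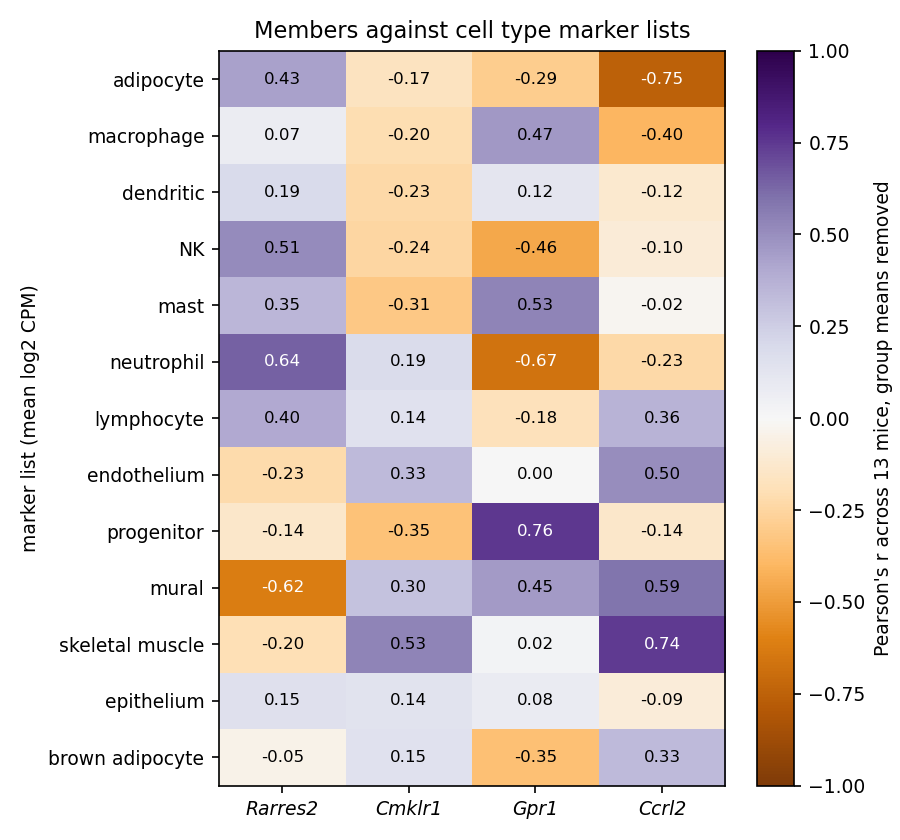
Pearson's r across 13 mice, with group means removed, between the log2 CPM of each gene (columns) and the mean log2 CPM of each marker list (rows); purple is positive and orange negative. The highest values are those of *Gpr1* with the progenitor list (0.76) and of *Ccrl2* with the skeletal muscle list (0.74), and none of the 52 passed after adjustment.

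For *Cmklr1* no correlation with markers of the cells known to carry the receptor passed the test. Its r was -0.20 with 12 macrophage genes (permutation p = 0.508, adjusted p = 0.834; rho = -0.16, permutation p = 0.609, adjusted p = 0.838), -0.23 with dendritic cell genes, -0.24 with natural killer cell genes and -0.17 with adipocyte genes, with unadjusted permutation p of 0.479, 0.463 and 0.570 and rho of -0.25, -0.21 and -0.099 (permutation p = 0.426, 0.519 and 0.754). With skeletal muscle r was 0.532 (permutation p = 0.0806, adjusted p = 0.420, rho = 0.451, permutation p = 0.137, adjusted p = 0.565). That r was 0.170 without the 2 farthest mice, replicate 7 at 22°C and replicate 6 at 29°C, and 0.930 within the 8 libraries of higher total.
Without the 2 mice farthest from the median of each score, r of *Cmklr1* was -0.63 with macrophage, -0.53 with dendritic cell and -0.49 with natural killer cell genes. With adipocyte genes it was 0.0092, and these values were not tested. The summed level of the macrophage genes overlapped between temperatures, with 723 to 1485 CPM at 22°C and 817 to 1558 CPM at 29°C. Of the 12 genes, 9 had a lower and 3 a higher level at 22°C (median -0.13 on the log2 scale), and 0 were called, beside 1.94% of all genes, a share too small for a count of 0 to tell the list apart. The smallest edgeR P-adj was 0.131, for *Mertk*, a receptor for the uptake of dying cells (29.6 and 41.2 CPM, log2 fold change -0.48 ± 0.14 SE). The most abundant were *Lyz2*, lysozyme of myeloid cells, with means of 277 and 275 CPM, *Csf1r*, the receptor for colony stimulating factor 1, with 151 and 143 CPM, and *C1qb*, a chain of complement C1q, with 138 and 150 CPM (log2 fold change -0.12 ± 0.23 SE, not called). Natural killer genes summed to 7.10 CPM or less in every mouse and dendritic cell genes to 37.8 CPM or less. With the macrophage score as a covariate the log2 fold change of *Cmklr1* was -0.70, with the adipocyte score -0.70 and with the muscle score -0.75.

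Of the adipocyte genes, 1 of 10 was called, beside 1.94% of all genes. This was *Lep*, which encodes leptin, with 735 ± 151 CPM (SD) over the 7 mice at 22°C and 1261 ± 227 CPM (SD) over the 6 at 29°C (log2 fold change -0.78 ± 0.15 SE, edgeR P-adj = 0.0564). The median of the 10 was -0.095, and the most abundant, *Fabp4* (fatty acid-binding protein), *Pnpla2* (adipose triglyceride lipase) and *Lipe* (hormone-sensitive lipase), were at 0.14 ± 0.13, -0.075 ± 0.15 and 0.053 ± 0.13 (log2 fold change ± SE), none called. Of 5 genes of brown and beige fat, 4 were tested and 3 were called higher at 22°C, beside 1.94% of all genes. These were *Cidea* (2.51 ± 0.40), *Cox8b* (2.27 ± 0.53) and *Otop1* (2.92 ± 0.59; log2 fold change ± SE, edgeR P-adj = 0.0199, 0.0827 and 0.0596). *Ppargc1a* was not called (0.87 ± 0.31, edgeR P-adj = 0.187). *Ucp1*, with 0 to 7 counts per library, did not pass the filter on low counts. *Cox8b* is also carried by muscle. Of the lymphocyte genes 1 of 6 tested was called, beside 1.94% of all genes. This was *Cd3e*, a T cell receptor subunit, at 1.04 CPM on average at 22°C and 0.297 CPM at 29°C (edgeR P-adj = 0.0817). In the 13 fits that each left out 1 mouse, *Cidea* was called in 13, *Lep* in 11, *Otop1* in 9, *Cox8b* in 4 and *Cd3e* in 3. Without the filter on low counts *Lep*, *Cox8b* and *Otop1* were not called (edgeR P-adj = 0.125, 0.142 and 0.107). *Cox8b* was also not called without the 2 libraries highest in muscle (edgeR P-adj = 0.114). In the lists of dendritic, natural killer and mast cells, neutrophils, endothelium, progenitors, mural cells and epithelium, edgeR called 0 genes, beside 1.94% of all genes. Their smallest edgeR P-adj were 0.224, 0.768, 0.260, 0.398, 0.193, 0.291, 0.353 and 0.371. All 10 skeletal muscle genes had higher means at 22°C with 0 called (median log2 fold change 2.97, smallest edgeR P-adj 0.227), and their part in the values of *Ccrl2* and *Rarres2* above was not tested beyond the fits given there.

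**Figure D4:**
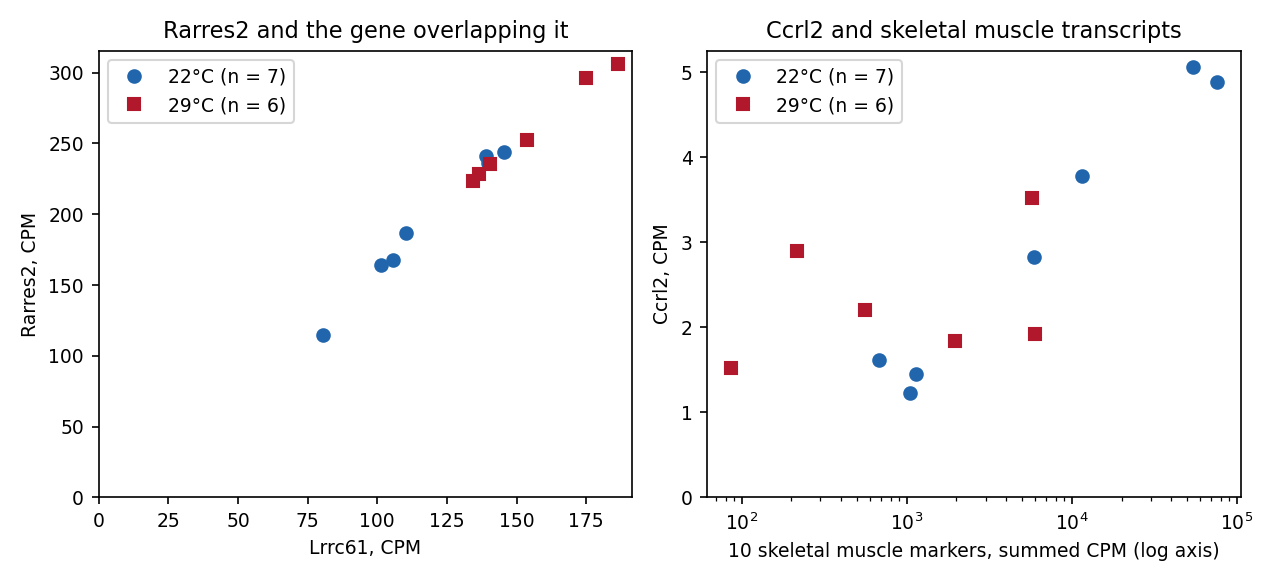
Left, *Rarres2* against *Lrrc61*, both in CPM, in each mouse at 22°C (circles, n = 7) and 29°C (squares, n = 6), which lie close to 1 line through all 13 mice. Right, *Ccrl2* in CPM against the summed CPM of 10 skeletal muscle genes on a log axis, where the 2 mice with most muscle transcripts (54356 and 75215 CPM), both at 22°C, have the highest *Ccrl2*.

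Of 19 genes of proteases and carboxypeptidases that activate or inactivate chemerin, 11 were tested, 5 with a higher and 6 with a lower mean at 22°C and 0 called, beside 1.94% of all genes, with a median log2 fold change of -0.032 beside 0.0074 for all genes. The most abundant were *Ctsl*, cathepsin L (246 ± 26.7 and 285 ± 19.2 CPM, log2 fold change -0.21 ± 0.081 SE, edgeR P-adj = 0.202), *Ace*, angiotensin-converting enzyme (237 ± 62.0 and 209 ± 20.8 CPM), and *Ctsk*, cathepsin K (81.0 ± 25.0 and 85.5 ± 28.3 CPM; SD, n = 7 at 22°C and n = 6 at 29°C). *Elane*, neutrophil elastase, averaged 2.57 and 2.30 CPM and the mast cell tryptase *Tpsb2* 29.5 and 30.2 CPM. Plasminogen (*Plg*) and coagulation factor XI (*F11*), made in liver, had at most 2 and 1 counts in any library.

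The genes known to regulate *Rarres2* had 0 of 11 called, 7 with a higher and 4 with a lower mean at 22°C and a median log2 fold change of 0.073. *Cebpa*, the adipocyte transcription factor, was the most abundant (1217 ± 246 and 1157 ± 97.4 CPM), followed by *Pparg*, the master regulator of adipocyte formation (310 ± 48.4 and 357 ± 28.8 CPM), and the retinoid X receptor *Rxra* (296 ± 19.4 and 305 ± 28.4 CPM; SD, n = 7 at 22°C and n = 6 at 29°C). The smallest edgeR P-adj of these lists was that of *Cebpb*, which averaged 97.9 CPM in the cooler and 70.8 CPM in the warmer group (log2 fold change 0.47 ± 0.12 SE, edgeR P-adj = 0.105). DESeq2, the tool of the study, called *Cebpb* and *Nr1h4* of this list (DESeq2 P-adj = 0.016 and 0.076), where it called 10.2% of all genes.

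Downstream of the receptors, 0 of 15 genes of G protein and arrestin signalling were called, 5 with a higher and 10 with a lower mean at 22°C and a median log2 fold change of -0.051. The inhibitory G protein subunits *Gnai2* (362 ± 61.4 and 412 ± 27.4 CPM) and *Gnai1* (282 ± 63.6 and 346 ± 55.1 CPM) and the small GTPase *Rhoa* (361 ± 24.3 and 390 ± 35.8 CPM; SD, n = 7 at 22°C and n = 6 at 29°C) were the most abundant. Other receptors of chemoattractants had 0 of 14 tested genes called, of 20 listed, beside 1.94% of all genes, with 7 in each direction and a median of -0.043. Among them *Ackr3* averaged 72.4 and 72.1 CPM, *Ackr4*, a chemokine-scavenging receptor, 42.8 and 47.0 CPM, and *Ccr2*, the receptor that draws monocytes into tissue, 17.1 and 20.5 CPM.
Over the 4 lists 0 of 51 tested genes were called by edgeR, beside 1.94% of all genes, and 9 of 51 had an unadjusted p below 0.05, beside 18.5% of all genes. DESeq2 called 6 of 48 (10.2% of all genes), and limma on the deposited regularized log2 values called 0.

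**Figure D5:**
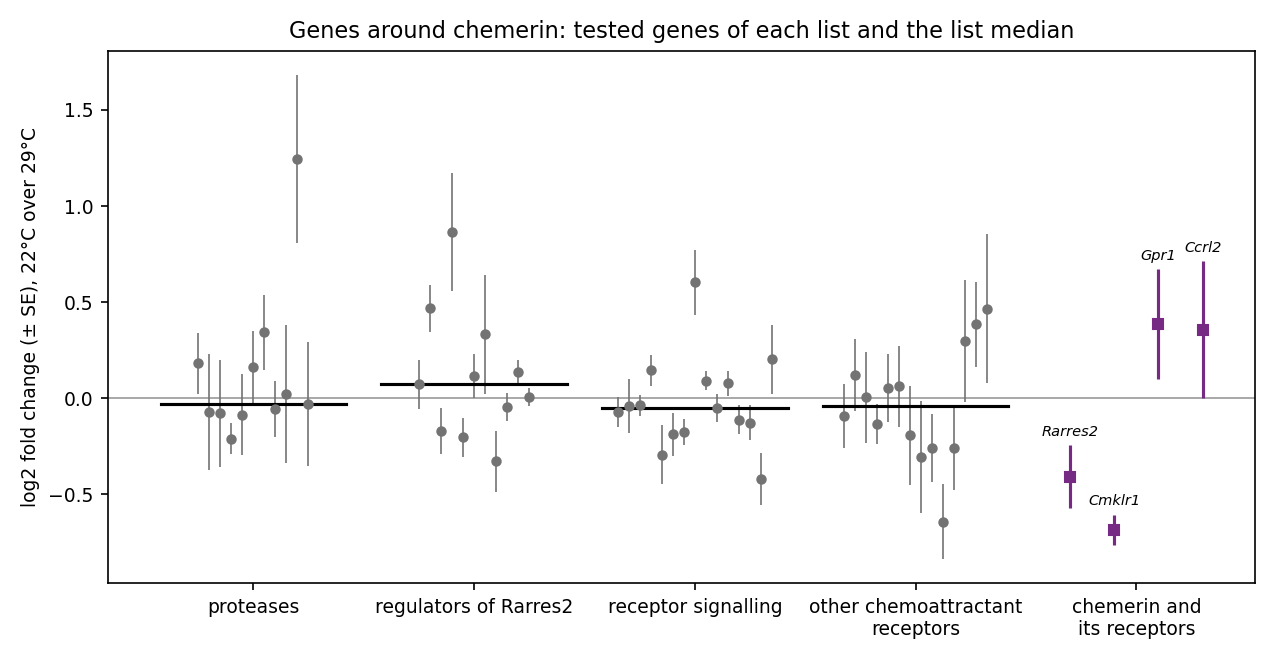
Log2 fold change, 22°C over 29°C, with SE, of every tested gene in 4 lists around chemerin (grey points, in alphabetical order within a list, with the list median as a black line) and of chemerin and its receptors (purple squares). The 4 medians lie between -0.051 and 0.073, and *Cmklr1* at -0.68 lies below all 51 list genes.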

How the data were processed

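RNA of gluteal WAT from 13 mice was sequenced as 1 library per mouse. Per the labels and methods, the authors aligned reads with STAR 2.7.5a, obtained counts per gene with featureCounts and deposited them raw for 34419 genes. A second table deposited by the authors holds regularized log2 values from DESeq2. The submitters' processing notes name GRCm39, the paper's methods mm10 for cultured cells; the annotation release and strand setting are not given in the sources used here. Symbols were matched by identifier to 34006 genes. The annotation used here is of GRCm38, so the only coordinates given are those of the RefSeq promoter stretches, in GRCm38.p6.

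Counts were fitted with edgeR 4.0.16 in R 4.3.3 (TMM, filterByExpr, quasi-likelihood F test, Benjamini-Hochberg over all genes tested, P-adj below 0.1). SE was taken as |log2 fold change| over the root of F. TMM-scaled totals entered CPM, and log2 CPM had a prior count of 2. Correlations used 100000 permutations within groups. The labels do not say that libraries come from separate litters, so p-values measure the spread between these libraries, and counting error is only a part of it. No library appeared under 2 labels (chi-square per gene at least 15.5 over 78 pairs).

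The genes, the lists of pathway and marker genes and the library-total clusters were chosen with earlier results of these data known. Named are the 4 genes, called genes and the 3 most abundant tested genes of each list, the 3 genes most like each member and overlapping genes. The genes *Cebpb*, *Nr1h4*, *Mertk*, *Elane*, *Tpsb2*, *Plg*, *F11* and *Klk7* were chosen after their values were seen, as were the correlations with marker lists and the fit without the 2 libraries highest in muscle. Alternatives were DESeq2 1.42.0, its size factors, no filter, a mean of at least 10 counts, robust fitting, P-adj below 0.05, limma 3.58.1 on the log2 values, the replicate number as a block, each mouse left out, marker scores or library-total cluster as a covariate, and the 8 libraries of higher total. No protein sequences were used here.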

Additional observations from a re-analysis of the deposited data

Results flagged for a closer look

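Of 42 groups of per-library values examined (the levels of the 4 genes and the summed levels of 17 gene lists, at each temperature), 2 held a mouse far from the others, where chance gives about 1 in 20. Both were at 29°C and in marker lists. In lymphocyte genes, replicate 1 was at 14.9 CPM and the next mouse at 4.86 CPM (gap over range 0.775). In epithelial genes, replicate 4 was at 244 CPM and the next at 48.4 CPM (gap over range 0.804). None of the 4 genes of chemerin and its receptors had such a mouse at either temperature.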

How the results depend on the processing

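*Cmklr1* kept its sign under every alternative run, and was not called in the 2 that dealt with library totals. Calls of this gene are not a test, as it was chosen by its p in this comparison. Its log2 fold change was -0.55 with limma on the regularized log2 values, a scale that shrinks differences. *Rarres2* moved to -0.86 with a term for the cluster of totals and to -0.87 in the libraries of higher total, and *Ccrl2* to -0.33 with the adipocyte score as a covariate; the cause was not tested. With each mouse left out, the log2 fold change was -0.72 to -0.64 for *Cmklr1*, -0.47 to -0.31 for *Rarres2*, 0.25 to 0.53 for *Gpr1* and 0.18 to 0.52 for *Ccrl2*.

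The count of genes called over the whole table, 345, depended most on the processing: 40 at P-adj below 0.05, 1676 with DESeq2, 42 without a filter, 48, 148 and 184 with the muscle, macrophage and adipocyte scores as covariates, 4 with a term for the cluster of totals, 8 in the libraries of higher total, and 32 (without replicate 3 at 29°C) to 652 (without replicate 6 at 22°C) with each mouse left out. In the 4 lists around chemerin, DESeq2 called 6 genes, the fit without the 2 libraries highest in muscle called 1 (*Cebpb*, 0.50), and fits without 1 mouse called 0 to 1. The cause was not tested.

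Replicate numbers 1 to 6 occur at both temperatures. Deviations of same-numbered libraries correlated by 0.051 to 0.513, over 0.1 in 5 of 6 pairs, and 4 of 6 libraries at 22°C correlated best with their own number, which falls short of the rule used here, a correlation over 0.1 in every pair, and the fit without the block was kept as the reported one. With the replicate number as a block, 214 genes were called, 2 of them in the lists (*Rarg*, -0.33, and *Cebpb*, 0.54), and the log2 fold change was -0.71 for *Cmklr1*, -0.32 for *Rarres2*, 0.29 for *Gpr1* and 0.079 for *Ccrl2*. Of 1685 values of other named genes under alternatives, 127 turned in sign without being called on either side. *Gpr1* and *Ccrl2*, with 32 to 290 counts per library, have the largest SE of the 4 genes.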

Other observations

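*Klk7*, a kallikrein of skin that can activate the chemerin precursor, did not pass the filter on low counts and entered no comparison. It was at 0 counts in 4 libraries, at 1 to 3 in 3 and above 3 in 6, where a count of 0 allows up to 3. Its 3 highest libraries, with 468, 100 and 92 counts, were replicates 4 and 5 at 29°C and replicate 5 at 22°C, which were also the 3 highest in summed epithelial markers (244, 48.4 and 47.7 CPM). *Rarres2* in these libraries was at 235, 297 and 187 CPM, within the range of its group in each. The part of skin in these libraries was not tested.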
